A study of Mus musculus with 71 samples.

Results

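The genes described here are 10 transcripts of neutrophil granules and neutrophil cytosol: S100a8, S100a9, Retnlg, Mmp8, Mmp9, Ltf, Lcn2, Camp, Ngp and Cd177. They were taken by gene symbol, and all 10 were present among the 10508 genes of the deposited normalised table and among the 55416 genes of the deposited count table. The normalised table had been filtered by the authors to coding genes with sufficient expression, and all 10 had passed that filter.

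Terminal whole blood of 71 mice was sequenced after globin depletion. The study concerned antibodies against galectin-3 in a chemically induced mouse model of systemic sclerosis. The paper describes female Balb/c AnNRj mice, but fewer of them than were deposited, and an inhibitor group that no label names. Mice entered the model at 6 weeks of age, and hypochlorous acid (HOCl) was injected intradermally on 5 days per week for 6 weeks. The control group (n = 11) received phosphate-buffered saline, and the HOCl group (n = 12) received HOCl with no antibody. The D11 and E07 groups (n = 12 each) were HOCl mice that also received the named monoclonal antibody against galectin-3, a human IgG1 with a silenced Fc part, subcutaneously at 20 mg/kg every 5 days. The D06 and BPR21 groups (n = 12 each) are labelled as HOCl mice with a treatment of that name, which the sources used here do not describe. Sex, strain, age and HOCl schedule are those of the paper, and for D06 and BPR21 mice they are not stated. Experimental and control groups were kept in separate cages, so effects of cage and group cannot be told apart. The model is a chemical injury in 1 inbred strain, and whole blood mixes neutrophils with every other blood cell.

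Neutrophils build their granules in order during maturation in the bone marrow: primary granules first, then specific granules, then gelatinase granules, and each granule protein is made mainly while its granule type is being formed. Lactoferrin, cathelicidin and neutrophilic granule protein belong to the stores laid down in immature stages, whereas the S100A8 and S100A9 proteins are cytosolic and their messages remain abundant in the mature neutrophil of blood. The secreted products bind metal ions, kill microbes or digest matrix, and calprotectin in blood is widely used as a measure of neutrophil activity.

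Totals of assigned reads ran from 11932855 to 15948972 (median 13719277). The values compared were those deposited after a variance-stabilising transformation (vst), which is close to log2 of the scaled count for abundant genes and shrinks differences of rare ones. For HOCl mouse 8 only counts were deposited, and vst values of the HOCl group are those of 11 mice. In bulk blood, fewer cells of a type and less RNA per cell cannot be told apart, and every difference given below may be either.

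A few mice stood far from the rest of their group in S100a8, and they are described before the groups are compared. By a rule chosen after seeing the data, more than 5 scaled median absolute deviations from the group median, 4 mice stood apart. These were BPR21 mouse 7 with a vst value of 16.12, BPR21 mouse 11 with 15.84, HOCl mouse 7 with 15.85 and D06 mouse 1 with 15.59, against group medians of 13.27, 13.62 and 13.40 in BPR21, HOCl and D06 mice. S100a8 and S100a9 together took 1.69% of all counts in BPR21 mouse 7, 1.08% in BPR21 mouse 11 and 1.04% in D06 mouse 1, and at most 0.954% in any other mouse. HOCl mouse 7 was different in this respect. Its share of 0.575% lay below that of HOCl mouse 9 (0.603%), and its library had the lowest size factor of the HOCl group, 0.460, where the size factor is the number by which the counts of a library are divided before the transformation. The 4 mice also differed from each other in the granule genes. Camp, the cathelicidin gene, had a vst value of 9.70 in HOCl mouse 7 and 9.49 in D06 mouse 1, near the top of the range of all mice, but 6.84 and 6.58 in BPR21 mice 7 and 11, close to the BPR21 median of 6.75. Results that rest on these mice are given with and without them.

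**Figure D1:**
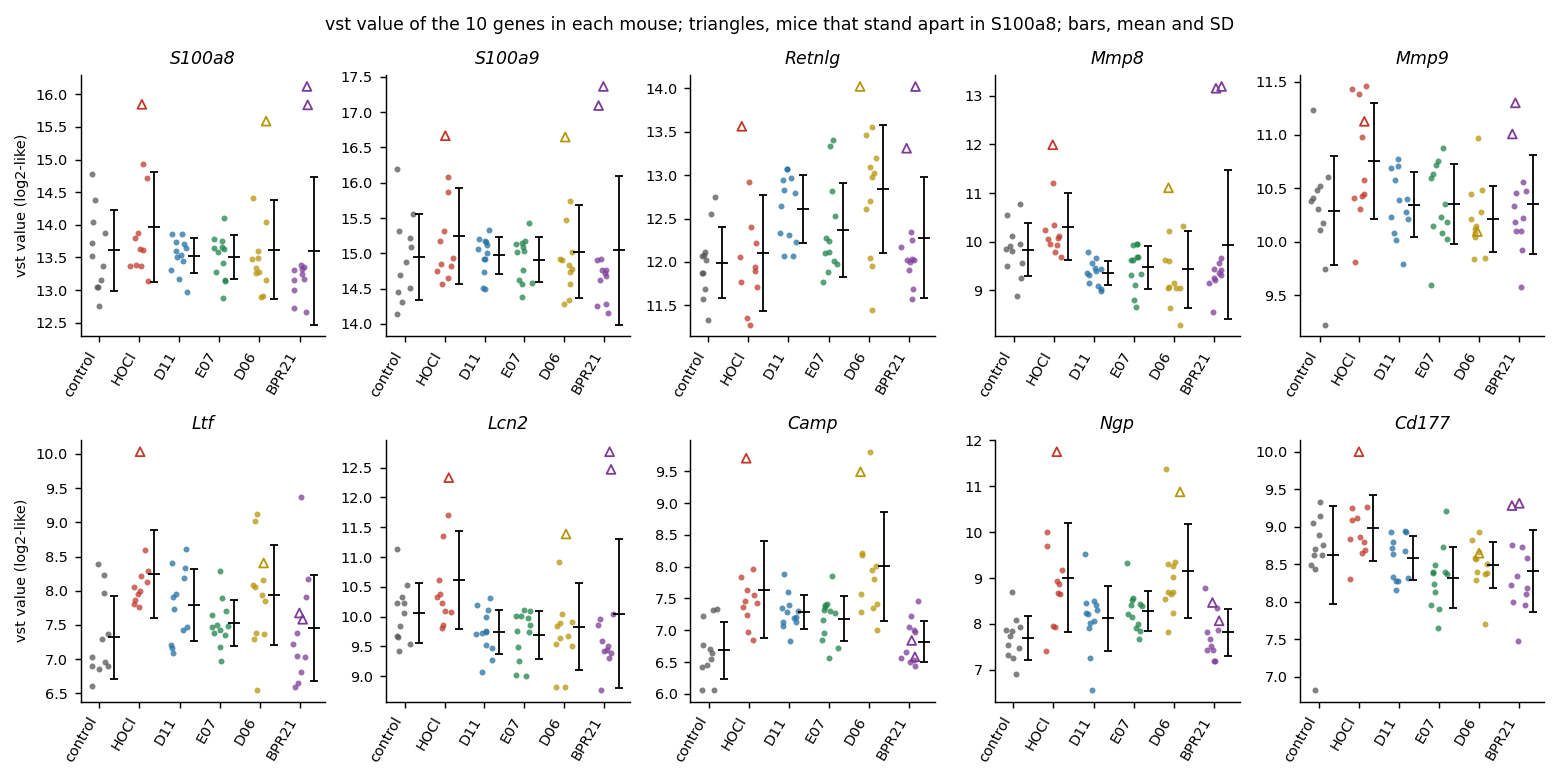
The vst value (log2-like) of each of the 10 genes in each mouse, by group, with the group mean and SD as black bars and the 4 mice that stood apart in S100a8 as open triangles. In BPR21 the triangles lie far above the other mice for S100a8, S100a9, Mmp8 and Lcn2 and inside the group for Camp, Ngp and Ltf.

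S100a8 and S100a9 encode the subunits of calprotectin, which binds zinc, manganese and calcium and signals through Toll-like receptor 4. Compared per kilobase of annotated exon, in median CPM (counts scaled to the same total in each library) of the 71 mice, S100a9 was the most abundant of the 10 genes with a level of 1867 CPM per kb, followed by S100a8 with 884.0. Retnlg followed with 349.1, and the remaining members were far lower, from 23.9 for Lcn2, 23.8 for Mmp9 and 20.7 for Mmp8 to 9.76 for Ngp, 6.80 for Cd177, 3.91 for Camp and 2.00 for Ltf. The share of all counts that fell on the 10 genes was 0.399% in the median mouse and ranged from 0.146% to 1.93%. Calprotectin transcripts made up most of that share in every mouse, between 70.3% and 89.9% of the counts on the 10 genes.

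The vst value of S100a8 (lowest, median, highest) was 12.76, 13.52 and 14.78 in control mice, 13.13, 13.62 and 15.85 in HOCl mice, 12.97, 13.57 and 13.86 in D11 mice, and 12.88, 13.60 and 14.11 in E07 mice. It was 12.90, 13.40 and 15.59 in D06 mice and 12.66, 13.27 and 16.12 in BPR21 mice. The 6 groups overlapped almost completely, and the upper ends of the HOCl, D06 and BPR21 ranges were set by mice that stood apart. The group means ran from HOCl (13.97 ± 0.84, SD, n = 11) through D06, control, BPR21 and D11 to E07 (13.50 ± 0.34, n = 12), and no neighbours in this order, nor its ends, differed beyond their spread. BPR21 had a mean of 13.61 ± 1.13 (n = 12), and 13.13 ± 0.26 (n = 10) without mice 7 and 11, the lowest of the groups. For S100a9 the means ran from HOCl (15.24 ± 0.68, n = 11) through BPR21, D06, D11 and control to E07 (14.91 ± 0.32, n = 12), again with no step beyond the spread.

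In limma fits of the vst values (Benjamini-Hochberg FDR of at most 0.05 over 10508 genes and a fold change of at least 1.3), S100a8 and S100a9 passed in 0 of 9 comparisons. These were HOCl versus control and each of the 4 treated groups versus HOCl and versus control, so they share the HOCl or control mice. An unadjusted p under 0.05 was reached by limma in 0 of the 9 comparisons for either gene. With edgeR and DESeq2 on the counts, calls numbered 0 as well, and an unadjusted p under 0.05 was reached in 2 comparisons for S100a8 and in 1 for S100a9 by each tool. Without the mice that stood apart, which were chosen by S100a8 itself, edgeR called S100a8 in BPR21 versus HOCl mice (1.76% of all genes called). The ratio of S100a8 to S100a9 counts does not depend on the scaling of a library. It was 0.376 in the median mouse and ranged from 0.323 to 0.566. Group means were 0.394 ± 0.020 (SD, n = 11) in control, 0.417 ± 0.064 (n = 12) in HOCl, 0.366 ± 0.021 (n = 12) in D11, 0.374 ± 0.016 (n = 12) in E07, 0.378 ± 0.039 (n = 12) in D06 and 0.368 ± 0.035 (n = 12) in BPR21 mice. The highest ratio belonged to HOCl mouse 7, and the HOCl mean without it was 0.404 ± 0.045 (n = 11).

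Ltf encodes lactoferrin, which binds iron, Camp encodes the precursor of the antimicrobial peptide CRAMP, and Ngp encodes neutrophilic granule protein, a cystatin-like protein of specific granules. These 3 genes, which lie on chromosome 9 together with Mmp8, were the members that differed between HOCl and control mice. With HOCl set against control, limma called 3 of the 10 genes, all higher in HOCl, where 4.96% of the 10508 genes passed (4.79% higher, 0.171% lower), so the share among the 10 genes was larger than among all genes. edgeR and DESeq2 each called the same 3 genes, where 5.12% of all genes (4.60% higher, 0.524% lower) and 6.36% (5.71% higher, 0.648% lower) passed. Without HOCl mouse 7 limma called 4.87% of all genes (4.63% higher, 0.238% lower).

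The vst value of Ltf (lowest, median, highest) was 6.61, 7.03 and 8.39 in control mice and 7.76, 8.06 and 10.03 in HOCl mice. Every one of the 11 HOCl mice lay above the control median, although only 2 exceeded the highest control mouse, so the groups overlapped. The log2 difference was 0.92 ± 0.24 (SE) with an FDR of 0.0185. Camp was 6.06, 6.64 and 7.33 in control mice, where 6.06 is the floor of the vst table, and 6.84, 7.47 and 9.70 in HOCl mice. All 11 HOCl mice were above the control median and 8 above the highest control mouse. The difference was 0.95 ± 0.24 (FDR 0.0157).

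Ngp was 6.92, 7.74 and 8.69 in control mice and 7.41, 8.87 and 11.75 in HOCl mice. Of the 11 HOCl mice, 10 lay above the control median and 6 above every control mouse. The difference was 1.304 ± 0.34 (FDR 0.0201). The genes had few counts in control mice, with medians of 39 for Ltf, 15 for Camp and 97 for Ngp, and the vst scale shrinks differences at that depth. On the count scale edgeR gave log2 differences of 1.57 for Ltf (FDR 0.0394), 2.67 for Camp (FDR 0.0129) and 2.45 for Ngp (FDR 0.00429). Without HOCl mouse 7 limma still called all 3, at 0.74, 0.75 and 1.03 (FDR 0.0160, 0.00764 and 0.0140), whereas edgeR called 1, where 4.47% of all genes passed (3.85% higher, 0.619% lower), Ngp at 1.71 (FDR 0.00675), and gave FDR values of 0.117 for Ltf and 0.0544 for Camp.

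The sequences just upstream of these genes are shown because they passed in HOCl compared with control mice, and those of S100a8 and S100a9, which did not, are set beside them. Each is the 250 bases before the start of the canonical transcript in GENCODE vM39, on GRCm39, written 5′ to 3′ on the strand of the gene, and none overlapped an annotated exon. Capitals mark the letters TTGCNNAA, searched on both strands, so that TTNNGCAA is marked too, a core to which C/EBP factors are known to bind.
Ltf, chr9:110848089-110848338, + strand: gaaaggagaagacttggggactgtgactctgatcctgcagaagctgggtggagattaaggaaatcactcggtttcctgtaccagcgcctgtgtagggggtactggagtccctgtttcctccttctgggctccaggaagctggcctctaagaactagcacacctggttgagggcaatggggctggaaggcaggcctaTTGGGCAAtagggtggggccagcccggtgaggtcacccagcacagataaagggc
Camp, chr9:109678686-109678935, - strand: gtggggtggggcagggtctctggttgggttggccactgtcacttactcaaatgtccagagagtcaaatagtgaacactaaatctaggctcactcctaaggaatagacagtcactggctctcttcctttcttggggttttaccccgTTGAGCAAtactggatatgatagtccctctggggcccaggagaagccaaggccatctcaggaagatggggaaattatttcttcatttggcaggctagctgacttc
Ngp, chr9:110248565-110248814, + strand: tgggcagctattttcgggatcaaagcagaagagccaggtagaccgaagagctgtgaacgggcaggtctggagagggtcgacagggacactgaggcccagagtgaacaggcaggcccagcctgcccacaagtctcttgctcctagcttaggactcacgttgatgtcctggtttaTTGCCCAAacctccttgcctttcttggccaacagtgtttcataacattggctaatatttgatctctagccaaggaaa
S100a9, chr3:90603072-90603321, - strand: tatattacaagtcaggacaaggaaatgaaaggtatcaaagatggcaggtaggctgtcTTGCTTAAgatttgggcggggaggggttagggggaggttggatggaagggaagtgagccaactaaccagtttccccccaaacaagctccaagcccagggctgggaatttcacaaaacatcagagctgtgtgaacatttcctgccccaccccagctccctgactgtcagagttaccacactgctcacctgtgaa
S100a8, chr3:90576035-90576284, + strand: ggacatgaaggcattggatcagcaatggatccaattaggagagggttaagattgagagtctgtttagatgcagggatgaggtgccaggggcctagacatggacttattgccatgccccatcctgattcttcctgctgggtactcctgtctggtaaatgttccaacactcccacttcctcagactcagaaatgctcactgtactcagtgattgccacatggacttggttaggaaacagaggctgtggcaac
The letters occurred once in Ltf, Camp, Ngp and S100a9 and did not occur in the S100a8 window. Over the 10 genes 7 had them, the others being Mmp8, Mmp9 and Lcn2, and 9.34% of 21770 windows of coding genes had them. The letters AGAGGAAG, a PU.1-type core searched on both strands, occurred in 0 of the 10 windows and in 3.51% of all windows. A match describes the letters only.

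The sum of the Ltf, Camp and Ngp counts per 1000 counts of S100a8 and S100a9 compares these 3 genes alone with calprotectin inside each library. It does not depend on the scaling of the library. The 3 genes are those called in HOCl versus control, so the ratio is no separate support for that difference. It was 1.58, 2.70 and 13.1 (lowest, median, highest) in control mice and 4.60, 11.7 and 30.5 in HOCl mice. D11 mice had 4.76, 6.37 and 28.9, E07 mice 2.83, 7.39 and 16.9, D06 mice 5.51, 16.4 and 48.3, and BPR21 mice 1.22, 4.62 and 26.1. The D06 and HOCl groups were high, control and BPR21 low, and all groups overlapped. Means were 4.56 ± 3.60 (SD, n = 11) in control, 13.6 ± 9.02 (n = 12) in HOCl, 17.7 ± 11.4 (n = 12) in D06 and 6.495 ± 6.79 (n = 12) in BPR21 mice. The mice that stood apart differed in this measure. HOCl mouse 7 had 30.3 and D06 mouse 1 had 16.9, close to the D06 median, whereas BPR21 mouse 7 had 1.44 and BPR21 mouse 11 had 1.22, the lowest of all 71 mice. Whether the differences between groups in this ratio exceed chance was not tested. Over all 10 genes, the calprotectin share of their counts was 85.4 ± 3.19% (SD, n = 11) in control and 84.7 ± 2.61% (n = 12) in HOCl mice. It was 80.1 ± 5.39% (n = 12) in D06 and 84.1 ± 2.58% (n = 12) in BPR21 mice.

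**Figure D2:**
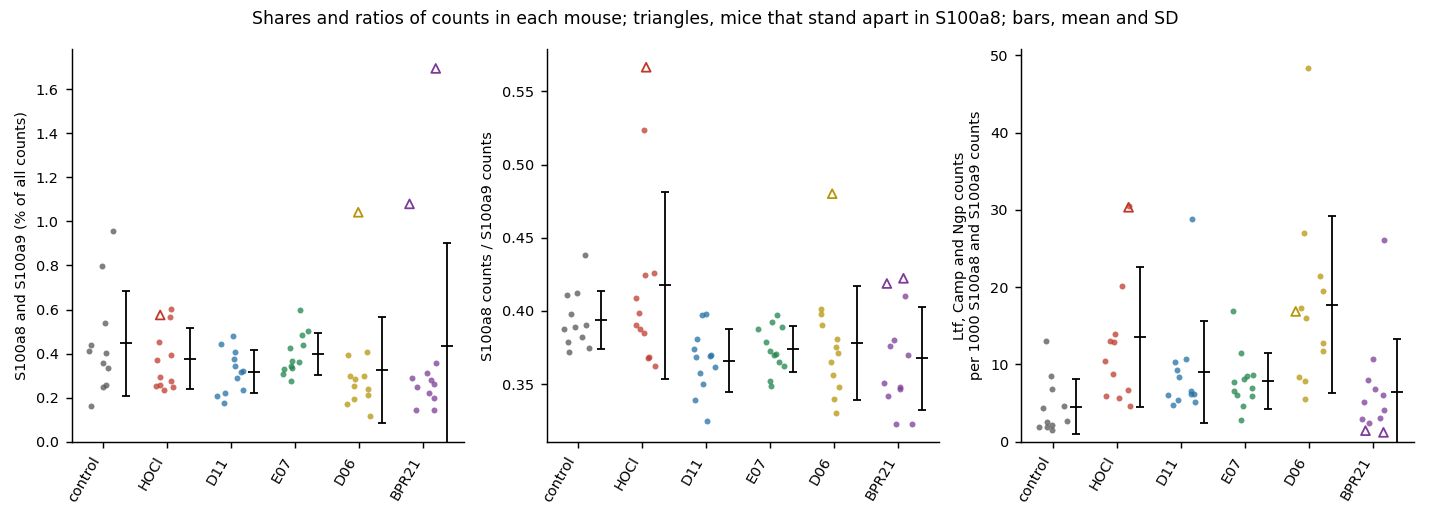
Each point is a mouse, by group: the percentage of all counts on S100a8 and S100a9, the ratio of S100a8 to S100a9 counts, and the Ltf, Camp and Ngp counts per 1000 counts of S100a8 and S100a9, with mean and SD as black bars and the mice that stood apart as triangles. The BPR21 triangles are the highest of that group in the first panel and the lowest in the last.

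Camp and Ngp were also high in D06 mice, together with Retnlg. In D06 compared with control mice 3 of the 10 genes passed, all higher, where 7.88% of all genes passed (7.27% higher, 0.609% lower). edgeR and DESeq2 called the same 3, Camp, Ngp and Retnlg, where 9.56% (8.04% higher, 1.52% lower) and 10.2% (8.78% higher, 1.43% lower) of all genes passed. Camp was 7.01, 7.88 and 9.81 (lowest, median, highest) in D06 mice. All 12 D06 mice were above the control median of 6.64 and 10 above the highest control mouse, a difference of 1.32 ± 0.26 (SE, FDR 0.00163). Ngp was 7.82, 8.87 and 11.37 in D06 mice. All 12 were above the control median and 8 above every control mouse, a difference of 1.46 ± 0.30 (FDR 0.00225). Ltf differed by 0.62 ± 0.25 (FDR 0.121, higher than the control median in 11 of 12 mice), and without D06 mouse 7 it passed too (0.74, FDR 0.0373, 7.87% of all genes called). Without D06 mouse 1 the differences of Camp and Ngp were 1.19 (FDR 0.00238) and 1.299 (FDR 0.00331), and 8.10% of all genes passed (7.38% higher, 0.723% lower).

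The order of the 6 groups was alike for these genes. The Camp mean ran from D06 (8.01 ± 0.86, SD, n = 12) through HOCl (7.64 ± 0.76, n = 11), D11 (7.28 ± 0.27, n = 12), E07 (7.18 ± 0.35, n = 12) and BPR21 (6.82 ± 0.33, n = 12) to control (6.68 ± 0.45, n = 11). The step from E07 to BPR21 was the only 1 of 50 steps between neighbouring groups, over the 10 genes, that exceeded the larger SD, and 0 of 50 did so without the 4 mice that stood apart. For Ngp the order was D06, HOCl, E07, D11, BPR21 and control, and for Ltf it was HOCl, D06, D11, E07, BPR21 and control. Highest and lowest group differed beyond the spread in 8 of the 10 genes, the exceptions being S100a8 and S100a9. Without the 4 mice the number was 8 as well, but S100a8 then differed beyond the spread (0.65 between HOCl and BPR21, larger SD 0.60) and Mmp9 did not (0.53 between HOCl and BPR21, larger SD 0.56). The 4 mice were chosen by S100a8, and leaving them out took its SD in BPR21 from 1.13 to 0.26. The change for S100a8 follows from that choice and decides nothing about the groups.

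Retnlg encodes resistin-like gamma, a small secreted cysteine-rich protein made by neutrophils. Its vst value (lowest, median, highest) was 11.33, 12.02 and 12.74 in control, 11.28, 11.94 and 13.56 in HOCl, 12.07, 12.72 and 13.07 in D11, 11.77, 12.18 and 13.40 in E07, 11.44, 13.002 and 14.02 in D06, and 11.57, 12.03 and 14.02 in BPR21 mice. Control and HOCl were the low groups and D06 and D11 the high ones, which sets Retnlg apart from the other 9 members, whose HOCl mean was the highest of the 6 groups or the next to it. In D06 compared with control mice Retnlg rose by 0.85 ± 0.22 (SE, FDR 0.0127), with 10 of 12 mice above the control median and 7 above every control mouse. Without D06 mouse 1 the difference was 0.74 (FDR 0.0215). With log2 of the CPM of total counts plus 1, the D06 difference was 0.29 and no longer passed, while the median of all genes moved to -0.57. Relative to that median it was 0.86. Under that scaling 5 members passed in D06 versus control, where 67.0% of all genes passed (2.77% higher, 64.3% lower), so the 3 lower calls are below the background and the 2 higher calls above it. Camp (2.04) and Ngp (1.54) were higher, and Mmp8 (-1.05), Mmp9 (-0.65) and Lcn2 (-0.83) were lower, by -0.48, -0.08 and -0.26 relative to the median of all genes.

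Mmp8 encodes neutrophil collagenase, Lcn2 encodes lipocalin-2, which captures bacterial siderophores, Cd177 encodes a surface glycoprotein also held in specific granules, and Mmp9 encodes gelatinase B, the enzyme that gives gelatinase granules their name. In E07 compared with HOCl mice 4 of the 10 genes passed, all lower, where 7.89% of all genes passed (0.876% higher, 7.01% lower). They were Mmp8, Lcn2, Cd177 and Ltf, and the share was larger than among all genes. edgeR called these 4 and Ngp, where 11.2% of all genes passed (3.22% higher, 7.95% lower), and DESeq2 called 7, with Mmp9 and Camp in addition, where 12.0% passed (2.60% higher, 9.41% lower). Without HOCl mouse 7 edgeR called the 4 genes, where 10.3% of all genes passed (2.69% higher, 7.63% lower), and Ngp no longer passed (-0.75, FDR 0.105, against -1.46, FDR 0.0215, with it).

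Mmp8 (lowest, median, highest) was 9.68, 10.08 and 11.99 in HOCl mice and 8.65, 9.62 and 9.96 in E07 mice. All 12 E07 mice lay below the HOCl median and 7 below every HOCl mouse. Mmp8 fell by 0.84 ± 0.21 on the log2 scale (limma, FDR 0.00828). Lcn2 was 9.82, 10.33 and 12.33 in HOCl mice and 9.01, 9.81 and 10.11 in E07 mice. All 12 E07 mice were below the HOCl median and 6 below every HOCl mouse, and the gene fell by 0.92 ± 0.24 (FDR 0.00882). Cd177 was 8.31, 8.86 and 10.00 in HOCl mice and 7.65, 8.38 and 9.21 in E07 mice, with 11 of 12 E07 mice below the HOCl median and 5 below every HOCl mouse, and it fell by 0.67 ± 0.16 (FDR 0.00538). Ltf was 6.97, 7.48 and 8.29 in E07 mice. It lay below every HOCl mouse in 10 of 12 E07 mice and fell by 0.72 ± 0.19 (FDR 0.0103).

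These 4 calls were also made by limma without HOCl mouse 7, where 7.44% of all genes passed (0.761% higher, 6.68% lower), with differences of -0.67, -0.75, -0.56 and -0.54 for Mmp8, Lcn2, Cd177 and Ltf. Mmp9 differed by -0.41 ± 0.17 (FDR 0.120), and leaving out HOCl mouse 12 alone brought it past the thresholds at -0.50 (FDR 0.0375, 7.84% of all genes called). With the 6 groups in a single limma fit 2 of the 4 calls were made, Lcn2 and Cd177, where 6.48% of all genes passed (0.523% higher, 5.96% lower). The remaining members differed from HOCl by -0.71 for Ngp (FDR 0.141, below the HOCl median in 11 of 12 mice), -0.45 for Camp (FDR 0.168, 11 of 12), -0.47 for S100a8, -0.33 for S100a9 and 0.27 for Retnlg, none of which passed, and those of S100a8, S100a9 and Mmp9 turned to 0.03, 0.17 and 0.01 with total-count scaling, under which the median of all genes was 0.49. Relative to that median they were -0.46, -0.31 and -0.47. Taking off the median of all genes assumes, as size factors do, that the typical gene did not change. These relative values therefore cannot decide between the scalings.

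**Figure D3:**
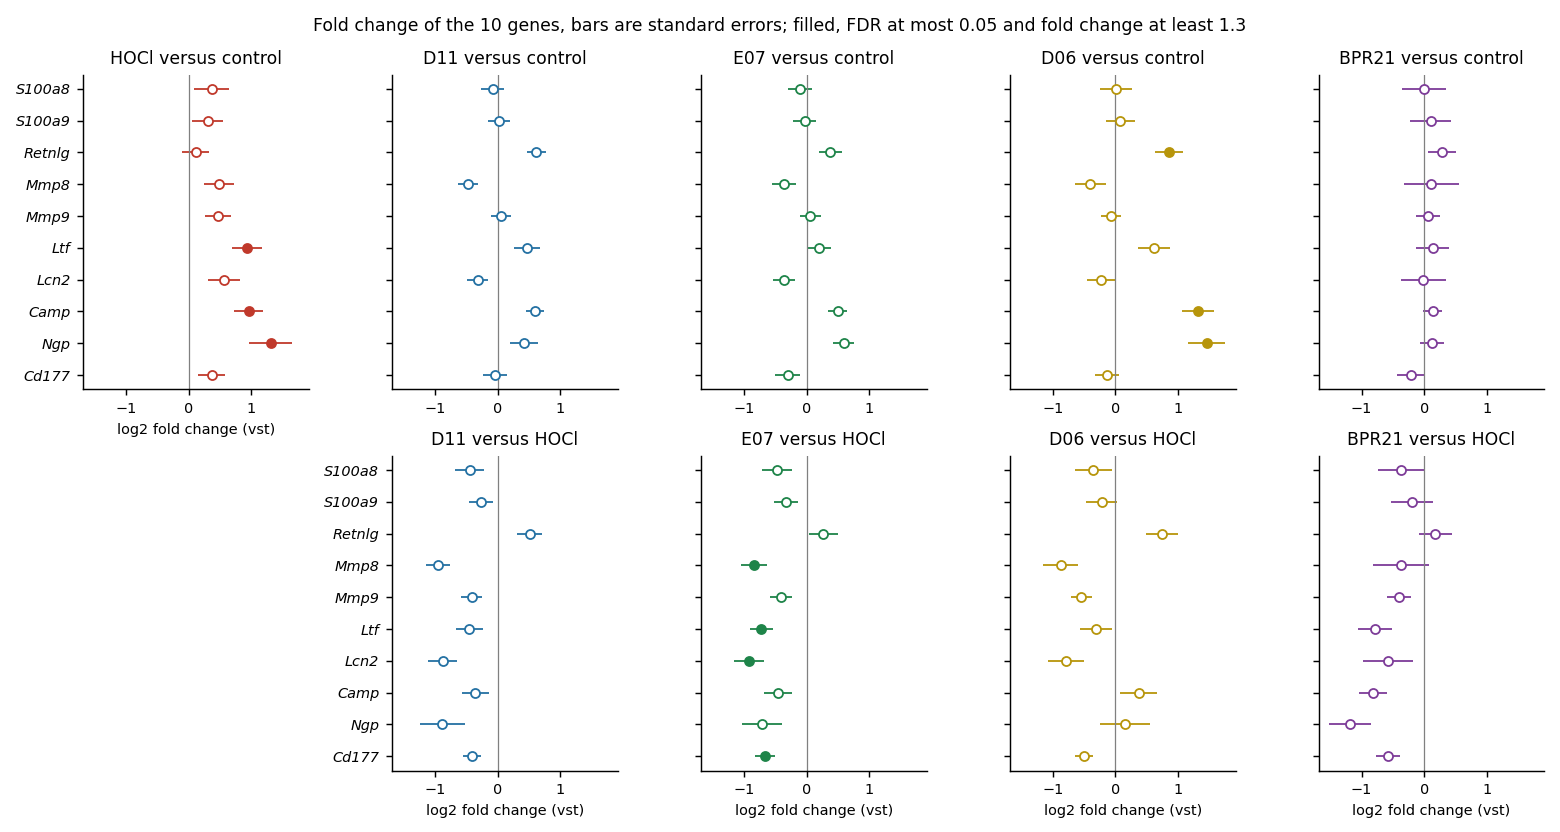
Log2 fold change (vst scale) of the 10 genes in each of the 9 comparisons, with standard errors as bars and filled points for an FDR of at most 0.05 with a fold change of at least 1.3. Filled points are Ltf, Camp and Ngp in HOCl versus control, Retnlg, Camp and Ngp in D06 versus control, and Mmp8, Ltf, Lcn2 and Cd177 in E07 versus HOCl.

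The libraries also differed in RNA of other blood cells, red cells above all. Of 12 erythroid markers 11 were in the tables (Ahsp was not), none was at 0 in all mice, and 10 of the 11 were higher in HOCl than in control mice, 10 lower in E07 than in HOCl mice and 11 higher in D06 than in control mice. Their summed level was 25046 to 76002 CPM (median 52719) in control, 59987 to 128934 (median 85049) in HOCl, 38516 to 89138 (median 62316) in D11, 35382 to 68605 (median 48493) in E07, 53291 to 125167 (median 66898) in D06 and 49231 to 90249 (median 64725) in BPR21 mice. Alas2 was the most abundant, with a median of 80515 CPM in HOCl mice. Of 7 neutrophil markers, all measured and none at 0 in all mice, 0 were called in HOCl versus control, 1 in E07 versus HOCl (Mmp8) and 1 in D06 versus control (Retnlg), and S100a9 was the most abundant. This list shares genes with the 10 members, S100a9, Mmp8 and Retnlg among them, and is no separate measure of neutrophil RNA. The summed level of the 7 markers had medians of 5574 CPM in control (2069 to 12554), 4557 in HOCl (3178 to 7236), 5069 in E07 (3874 to 8068) and 3755 in D06 mice (1706 to 12200.1), so the groups overlapped widely. Of 8 platelet markers 7 were in the normalised table (Gp1bb was not), and 5 were higher in HOCl than in control mice, 7 lower in E07 than in HOCl mice and 5 higher in D06 than in control mice, with none at 0 in all mice, Pf4 the most abundant and summed medians of 3584 CPM in control, 4178 in HOCl, 4104 in E07 and 4562 in D06 mice. Of 6 B cell markers, all measured and none at 0 in all mice, 5 were higher in E07 than in HOCl mice, with Cd79a the most abundant and summed medians of 1952 and 1002 CPM. Of 6 eosinophil markers 5 were in the normalised table (Epx was not), none was at 0 in all mice, and 3 were higher in D06 than in control mice, 2 higher in E07 than in HOCl mice, and 1 higher in D11 and in D06 than in HOCl mice and in D11 than in control mice, with Ccr3 the most abundant and summed medians of 79.3 CPM in control, 51.8 in HOCl, 92.8 in D11, 103.5 in E07 and 114.7 in D06 mice. In BPR21 compared with control mice 2 of 6 NK cell markers, all measured and none at 0 in all mice, were lower, with Gzma the most abundant and summed medians of 217.7 and 499.5 CPM, and 1 platelet marker was higher. The part of these cells' RNA in the differences of the 10 genes was not tested.

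With total-count scaling, the median log2 difference of all genes moved from -0.02 to -0.46 in HOCl versus control, from 0.02 to 0.49 in E07 versus HOCl, and to -0.36 and -0.38 in D11 and BPR21 versus control. Of the genes called, 96.5% were higher in HOCl versus control with the deposited scaling and 5.81% with total counts, 11.1% and 95.4% in E07 versus HOCl, and 92.3% and 4.13% in D06 versus control. The same shares were 100% and 0% in D11 versus control, 30.2% and 1.33% in BPR21 versus control, and 57.1% and 0% in D06 versus HOCl. In HOCl versus control the members' median moved from 0.47 to 0.09, and S100a8, S100a9 and Retnlg turned from 0.36, 0.30 and 0.11 to -0.11, -0.18 and -0.39, which is 0.35, 0.28 and 0.07 above the median of all genes. Ltf, Camp and Ngp passed under this scaling too, as higher where 52.0% of all genes passed (3.02% higher, 49.0% lower), with 1.16, 1.502 and 1.36, and the 3 genes then stood 1.62, 1.96 and 1.83 above the median of all genes. In E07 versus HOCl 4 members passed under total-count scaling, 1 higher and 3 lower, where 64.6% of all genes passed (61.6% higher, 2.95% lower): Ltf, Lcn2 and Cd177 were lower, Mmp8 was no longer called (-0.42), and Retnlg was called higher (0.80). Relative to the median of all genes, Retnlg then differed by 0.31 and Mmp8 by -0.91. Values relative to that median cannot decide between the scalings, because they assume an unchanged typical gene.

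**Figure D4:**
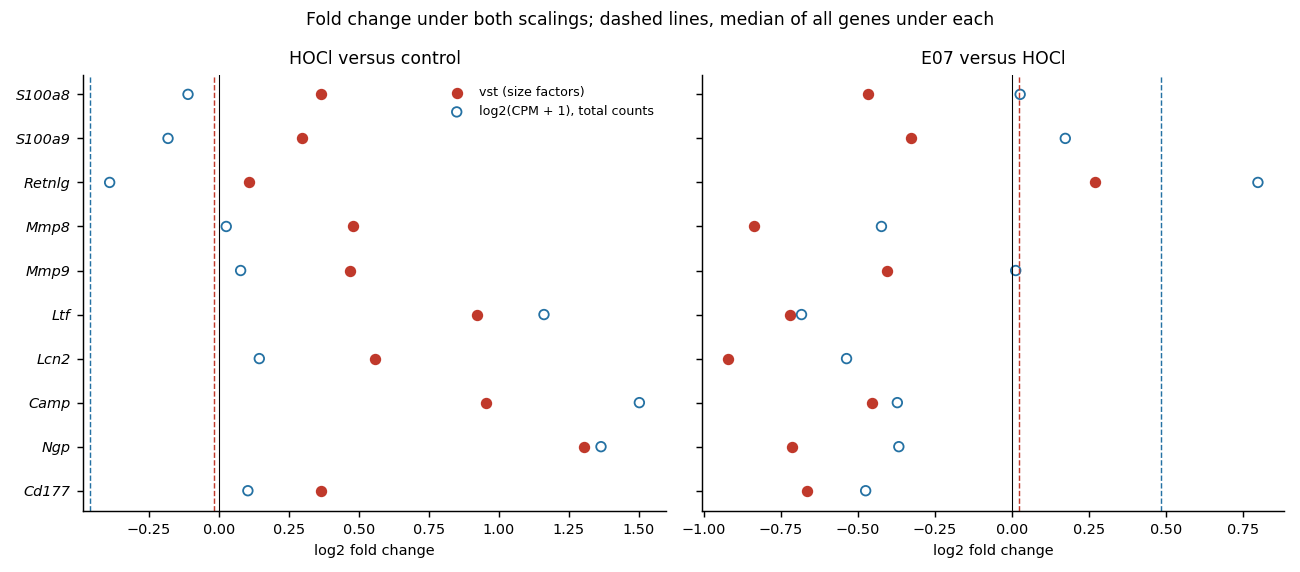
Log2 fold change of the 10 genes in HOCl versus control and in E07 versus HOCl, with the deposited size-factor scaling (filled) and with log2 of CPM of total counts plus 1 (open), and the median of all genes under each as dashed lines. S100a8, S100a9 and Retnlg (HOCl versus control) and S100a8, S100a9 and Mmp9 (E07 versus HOCl) lie on opposite sides of 0 under the scalings, whereas Ltf, Camp and Ngp stay to the right of 0 in HOCl versus control.

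D11, D06 and BPR21 mice were each compared with the same HOCl mice. In D11 compared with HOCl mice limma called 0 of the 10 genes, and 0.0571% of all genes (0.0285% higher, 0.0285% lower), with 7 of the 10 and 14.1% of all genes at an unadjusted p under 0.05. edgeR called 2, Mmp8 and Lcn2, where 0.409% of all genes passed (0.171% higher, 0.238% lower), and DESeq2 called these and Cd177, where 1.66% passed (0.672% higher, 0.992% lower). Mmp8 was 8.99, 9.38 and 9.79 (lowest, median, highest) in D11 mice. All 12 lay below the HOCl median and 11 below every HOCl mouse, the clearest separation of any member in any comparison, with a difference of -0.95 ± 0.19 and an FDR of 0.0514, just outside the threshold. Leaving out HOCl mouse 3, 7, 10, 11 or 12, or D11 mouse 3 or 10, each alone gave 1 call, Mmp8, where 0.0571% to 0.276% of all genes passed, with a difference of -0.79 and the lowest FDR, 0.0227, without HOCl mouse 7, where 0.0571% of all genes passed (0.0190% higher, 0.0381% lower). Lcn2 was below the HOCl median in 12 of 12 D11 mice, with a difference of -0.88 ± 0.23 (FDR 0.115). Retnlg lay above the HOCl median in 12 of 12 D11 mice, at 0.51 ± 0.20 (FDR 0.268).

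In BPR21 compared with HOCl mice limma called 0 of the 10 genes, and 0.638% of all genes (0.238% higher, 0.400% lower), with 5 of the 10 and 14.0% of all genes at an unadjusted p under 0.05. edgeR called 2, Camp and Ngp, where 0.857% of all genes passed (0.476% higher, 0.381% lower), and DESeq2 called 4, with Mmp8 and Ltf in addition, where 2.53% passed (1.15% higher, 1.38% lower). The tools differed in sign for Mmp8: DESeq2 gave it as lower (-1.19) and limma gave -0.37, whereas edgeR gave 0.61. DESeq2 ran with its defaults, which replace counts far from the rest of a group. Whether counts of BPR21 mice 7 and 11 were replaced was not tested, so its Mmp8 value may not rest on all mice. Camp lay below the HOCl median in 12 of 12 BPR21 mice (difference -0.82 ± 0.22, FDR 0.0732), as did Ngp (-1.18 ± 0.34, FDR 0.0890). Mmp8 was 8.56, 9.39 and 13.19 (lowest, median, highest), and 10 of 12 mice were below every HOCl mouse while BPR21 mice 7 and 11 were above every HOCl mouse. Without HOCl mouse 7 and BPR21 mice 7 and 11, limma called 4 of the 10 genes, where 1.05% of all genes passed (0.305% higher, 0.742% lower): Mmp8 at -0.85 (FDR 0.00933), Lcn2 at -0.92 (FDR 0.0239), Camp at -0.59 (FDR 0.0458) and Cd177 at -0.65 (FDR 0.0236). edgeR called 5 without them, S100a8, Mmp8, Lcn2, Ngp and Cd177, where 1.76% of all genes passed (0.724% higher, 1.04% lower). With all mice edgeR gave -0.05 for S100a8. The mice were left out for their S100a8 values. Calls without them therefore cannot decide whether S100a8, or genes that follow it such as Mmp8 and Lcn2, differed. Leaving out HOCl mouse 7 alone gave 1 call, Camp (FDR 0.0326, 0.561% of all genes called), and leaving out BPR21 mouse 10 alone gave 1, Ltf (FDR 0.0471, 0.466% of all genes called).

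The monocyte markers moved as well. Of 7 monocyte markers, all measured and none at 0 in all mice, 4 were lower in BPR21 than in HOCl mice, and their summed level was 268.5 to 681.3 CPM (median 434.3) in BPR21 and 351.9 to 926.3 CPM (median 661.4) in HOCl mice, with Ccr2 the most abundant. Of the same 7 markers 4 were lower in BPR21 than in control mice (median 929.9 CPM, 391.4 to 1179.4), 2 lower in E07 (median 613.7 CPM, 498.4 to 853.3) than in HOCl mice, and 1 lower in D06 (median 495.7 CPM, 319.2 to 665.1) than in HOCl and than in control mice. Their part in the differences of the 10 genes was not tested. In D06 compared with HOCl mice limma called 0 of the 10 genes, and 0.133% of all genes (0.0761% higher, 0.0571% lower), with 5 of the 10 and 12.7% of all genes at an unadjusted p under 0.05. edgeR called 0 and 0.533% of all genes (0.257% higher, 0.276% lower), and DESeq2 called 2, Mmp9 and Cd177, where 1.96% passed (0.931% higher, 1.03% lower). Without HOCl mouse 7 and D06 mouse 1 limma called 0 of the 10 genes, and 0% of all genes, with 5 of the 10 and 12.5% of all genes at an unadjusted p under 0.05. Mmp8 was below every HOCl mouse in 9 of 12 D06 mice (difference -0.88 ± 0.27, FDR 0.162) and Cd177 below the HOCl median in 11 of 12 (-0.50 ± 0.15, FDR 0.142).

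Against control mice the treated groups other than D06 gave 0 calls by limma. In D11 compared with control mice 0.0761% of all genes passed (0.0761% higher, 0% lower), and 4 of the 10 and 16.1% of all genes had an unadjusted p under 0.05. edgeR called 0 and 0.0952% of all genes (0.0857% higher, 0.00952% lower), and DESeq2 called 2, Retnlg and Mmp8, where 1.66% passed (1.31% higher, 0.343% lower). Camp and Retnlg lay above the control median in 12 of 12 D11 mice, with differences of 0.60 ± 0.14 (FDR 0.0913) and 0.62 ± 0.15 (FDR 0.0974), and Mmp8 below it in 12 of 12, at -0.48 ± 0.16 (FDR 0.136). These calls hung on single mice: without control mouse 12 limma called 3 (Camp, Retnlg and Mmp8, FDR 0.00735, 0.0240 and 0.0184) and 5.18% of all genes, without control mouse 6 it called 2 (Camp and Retnlg) and 0.133% of all genes, and without control mouse 4 or D11 mouse 2 it called 1 (Camp and Retnlg, respectively) and 0.190% or 0.305% of all genes. In E07 compared with control mice 0.00952% of all genes passed, 4 of the 10 and 7.60% of all genes had an unadjusted p under 0.05, and edgeR and DESeq2 called 0, where 0.00952% and 0.190% (0.105% higher, 0.0857% lower) of all genes passed. In 11 of 12 E07 mice Ngp and Camp exceeded the median of the controls, with differences of 0.59 ± 0.17 (FDR 0.322) and 0.50 ± 0.15 (FDR 0.354). In BPR21 compared with control mice 0.504% of all genes passed (0.152% higher, 0.352% lower) and 0 of the 10 and 19.9% of all genes had an unadjusted p under 0.05. edgeR called 0 and 1.78% of all genes (1.11% higher, 0.667% lower), and DESeq2 called 1, Mmp8, where 4.96% passed (3.74% higher, 1.22% lower). The tools differed in sign for Mmp8: DESeq2 gave it as lower (-0.66), whereas limma gave 0.11 and edgeR 1.16. Here too DESeq2 may have replaced the counts of BPR21 mice 7 and 11, which was not tested. Without BPR21 mice 7 and 11 limma called 0 and 0.400% of all genes (0.0761% higher, 0.324% lower), with 3 of the 10 and 17.9% of all genes at an unadjusted p under 0.05, and edgeR called 0 and 1.01% of all genes (0.486% higher, 0.524% lower), with 5 of the 10 and 17.9% of all genes at that p.

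The comparisons side by side give the members' median log2 difference as 0.47 in HOCl versus control, and as -0.43, -0.57, -0.33 and -0.49 in D11, E07, D06 and BPR21 versus HOCl, where the median of all genes was between -0.02 and 0.02. Versus control it was 0.04 in D11, 0.01 in E07, 0.05 in D06 and 0.10 in BPR21 mice. Comparisons with HOCl share the HOCl mice and those with control the control mice. Without the mice that stood apart the medians were 0.35 in HOCl versus control, -0.29, -0.40, -0.28 and -0.65 in D11, E07, D06 and BPR21 versus HOCl, and -0.07 and -0.22 in D06 and BPR21 versus control, the last 2 with the other sign. Whether an effect differed between treated groups was not tested.

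Between mice of a group the members moved together to different degrees. Group means were taken off the vst values of 70 mice, and 45 pairs were correlated with two-sided permutation tests of 100000 resamples, in which 1e-05 is the smallest p possible. After Benjamini-Hochberg adjustment over the 45 pairs 40 passed, all positive, 33 by Spearman's rho, and 32 without the 4 mice that stood apart. On the CPM scale 35 passed, and the lowest r was -0.05, for Mmp9 with Camp. Whether pairs of other genes pass as often was not tested. S100a8 and S100a9 were the closest pair (r = 0.99, rho = 0.98, p = 1e-05 for both, adjusted p = 2.81e-05), and r was 0.98 without the 2 mice farthest from the median, BPR21 mice 7 and 11. Lcn2 and Mmp8 followed both subunits. The correlation of S100a8 with Lcn2 was r = 0.93 (rho = 0.87, p = 1e-05 for both, adjusted p = 2.81e-05, r = 0.90 without the 2 farthest mice), and that of Mmp8 with Lcn2 was r = 0.94 (rho = 0.87, p = 1e-05 for both, adjusted p = 2.81e-05, r = 0.90 without them).

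Camp and Ngp formed the other tight pair (r = 0.85, rho = 0.72, p = 1e-05 for both, adjusted p = 2.81e-05), with r = 0.77 without HOCl mouse 7 and D06 mouse 6. Ltf was looser, at r = 0.48 with Camp (rho = 0.37, permutation p = 0.00051 and 0.00258, adjusted p = 0.000918) and r = 0.39 without BPR21 mouse 10 and HOCl mouse 7. Among the 21 pairs that join Ltf, Camp or Ngp to the other 7 genes the median r was 0.33 and 16 passed, and without the 4 mice the median was 0.25 and 10 passed. Among the 21 pairs within the other 7 genes the median r was 0.63 and 21 passed, and 0.44 and 19 without the 4 mice. Ltf, Camp and Ngp were singled out as the genes called in HOCl versus control, and they have low counts. Whether low counts account for the lower r was not tested. Mmp9 with Camp gave the lowest value (r = 0.04, rho = 0.04, permutation p = 0.748 and 0.729, adjusted p = 0.748, r = 0.12 without the 2 farthest mice).

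**Figure D5:**
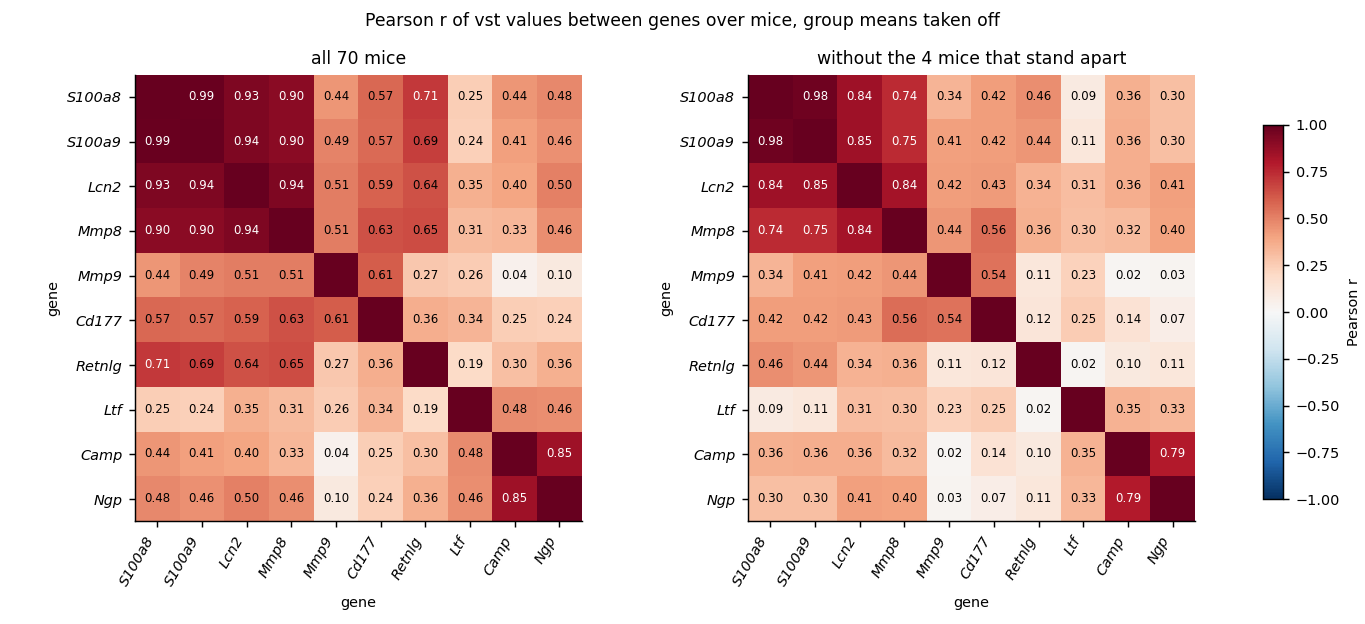
Pearson r between each pair of the 10 genes over 70 mice, and over 66 mice without the 4 that stood apart, with group means taken off. Values near 1 (dark red) join S100a8, S100a9, Lcn2 and Mmp8, and Camp with Ngp (0.85 and 0.79), whereas Mmp9 with Camp is at 0.04 and 0.02.

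Outside the 10 genes, those most like S100a8 over the same 70 mice were S100a6 (r = 0.93), Wfdc21 (r = 0.91), Cstdc4 (r = 0.90), Mcemp1 (r = 0.89) and Fbxl5 (r = 0.89), by Pearson r among 10498 genes after group means were taken off. Over 66 mice without the 4 that stood apart the values were 0.83, 0.78, 0.73, 0.78 and 0.81. Those most like Ltf were Herc1 (r = 0.50), Gsto1 (r = 0.50), Mal (r = 0.49), Wnk1 (r = 0.49) and Tcp11l2 (r = 0.48), and over the 66 mice 0.40, 0.63, 0.62, 0.43 and 0.31. Without the 4 mice Herc1, Wnk1 and Tcp11l2 ranked 47, 31 and 183 for Ltf, and Gsto1 and Mal 2 and 4. Ltf thus had no gene as close to it as S100a8 had. Its median level was 7.12 CPM, against 871 CPM for S100a8, and the part of low counts in the lower r was not tested.

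Other genes of the neutrophil were taken from fixed lists. Of 4 primary granule genes only Prtn3, proteinase 3, was in the normalised table, at vst values of 6.06 to 7.97, and limma called it in 0 of 9 comparisons. Mpo, Elane and Ctsg were not in that table. Of 16 other genes of specific and gelatinase granules and secretory vesicles 14 were in the table, and 1 passed in each of 3 comparisons, a count near the background in E07 versus HOCl (7.01% of all genes lower). Olfm4, which encodes olfactomedin-4 of specific granules, fell by 0.57 ± 0.12 in E07 compared with HOCl mice (SE, limma FDR 0.00150). Cybb, the gp91phox subunit of the NADPH oxidase, fell by 0.74 ± 0.15 in BPR21 compared with HOCl (FDR 0.0145) and by 0.76 ± 0.16 compared with control mice (FDR 0.0247), where 0.400% and 0.352% of all genes were lower and 4 of 7 monocyte markers were lower in each. Whether the Cybb differences lie in monocytes was not tested. The most abundant of the list was Lyz2, a lysozyme, with a vst mean of 15.45 ± 0.25 (SD, n = 11) in HOCl mice.

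None of the 18 neutrophil receptor and mature neutrophil genes, all measured, was called by limma in any of the 9 comparisons, and their median log2 difference was 0.10 in HOCl versus control, -0.24 in E07 versus HOCl and -0.09 in D06 versus control, beside -0.02, 0.02 and -0.03 for all genes. Of 7 transcription factors of granule genes 2 were lower in E07 than in HOCl mice, Cebpa (-0.47 ± 0.13, FDR 0.0121) and Cebpb (-0.48 ± 0.15, FDR 0.0292), and 1 was higher in D06 than in control mice, Cebpe (0.51 ± 0.12, FDR 0.00728). Of all genes 7.01% were lower in E07 versus HOCl and 7.27% higher in D06 versus control, so the count in D06 was near the background. Cebpe means were also above control (7.18) in D11 (7.72) and E07 mice (7.64), close to D06 (7.69), without a call. Cebpe encodes the factor known to be required for specific granules. The most abundant of the 7 factors was Spi1, which encodes PU.1. Of 9 receptors and inhibitors of the granule products 7 were in the normalised table (Slc22a17 and Timp1 were not). In HOCl and in D06 versus control 1 of the 7 was higher, where 4.79% and 7.27% of all genes were. In E07 versus HOCl 1 was higher and 2 were lower, where 0.876% and 7.01% of all genes were. Bsg, a membrane glycoprotein that induces metalloproteinases and is also carried by red cells, rose by 1.07 ± 0.24 in HOCl versus control (FDR 0.00869), fell by 1.07 ± 0.21 in E07 versus HOCl (FDR 0.00101) and rose by 1.12 ± 0.22 in D06 versus control (FDR 0.00180). Serpinb1a, an inhibitor of neutrophil proteases, rose by 0.56 ± 0.10 in E07 versus HOCl (FDR 4.08e-04), and Cd14 fell by 0.59 ± 0.16 (FDR 0.0127).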

How the data were processed

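RNA of whole blood was compared between 6 groups of mice, grouped per the labels. The authors trimmed reads with Cutadapt, aligned them to mm39 with STAR and counted them per gene with featureCounts, and the deposited counts are raw. The deposited log2-like values are a vst by DESeq2 of genes left once the authors had dropped non-coding and low ones. The annotation release and the versions of the aligner and the counting tool are not stated.

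Here limma 3.58.1 (R 4.3.3) compared vst values in fits of the 2 groups concerned, with an FDR of at most 0.05 over all 10508 genes and a fold change of at least 1.3. Counts of 10501 of these genes, matched by symbol, were compared with edgeR 4.0.16 (glmQLFTest, TMM) and DESeq2 1.42.0. Shares called by DESeq2 are over the genes to which it gave an adjusted p. These were 9076 genes in D11, 8058 in D06 and 10093 in BPR21 versus HOCl, and 10501 in the other comparisons. Python 3.11.15, numpy 2.4.6, pandas 2.3.3, scipy 1.17.1 and matplotlib 3.10.9 did the rest. CPM are counts scaled to the same total in each library. Exon lengths and promoters came from GENCODE vM39 on GRCm39. The fits and correlations were tested on simulated data. Totals of 11932855 to 15948972 counts limit the precision of Ltf and Camp most.

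Genes named are the 10 members, list genes that passed or, in some lists, had the highest mean count, and the 5 genes most like S100a8 and Ltf by Pearson r. Members and lists were chosen with earlier results of these data known. Alternatives were other tools, total-count scaling (log2 of CPM plus 1), other filters, a single fit of 6 groups, the FDR alone, the mouse number as a block, each mouse left out in turn and the 4 mice that stood apart left out, the last chosen after seeing the data. HOCl mouse 8 has no vst values and enters fits on counts only.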

Additional observations from a re-analysis of the deposited data

How the results depend on the processing

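Values followed over alternatives were the counts of members called, and the log2 differences of all 10 genes in HOCl versus control and E07 versus HOCl and of Retnlg, Camp and Ngp in D06 versus control. Of 749 such log2 differences 721 kept direction and side of the thresholds, 9 fell short of them, 10 newly passed and 9 changed sign.

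The sign changes were, with total-count scaling, -0.11, -0.18 and -0.39 for S100a8, S100a9 and Retnlg in HOCl versus control and 0.0266, 0.17 and 0.0122 for S100a8, S100a9 and Mmp9 in E07 versus HOCl. Retnlg in HOCl versus control became -0.0384 without HOCl mouse 7, which is also the value without the mice that stood apart, and -0.0589 with edgeR without them, and over all mice left out in turn it ran from -0.0384 to 0.19. Under total-count scaling the median of all genes moved as well. The cause of the others was not tested.

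Members called are given with the share of all tested genes called under the same alternative in brackets. In HOCl versus control 3 became 1 with edgeR without the mice that stood apart (4.47%). In D11 versus HOCl 0 became 2 with edgeR (0.409%), 3 with DESeq2 (1.66%), 2 with edgeR's own filter (0.270%), 2 with no filter (0.0880%), and without the mice that stood apart 1 with limma (0.0571%) and 2 with edgeR (0.514%). In E07 versus HOCl 4 became 5 with edgeR (11.2%), 5 with edgeR's own filter (10.1%), 7 with DESeq2 (12.0%), 7 with no filter (9.10%) and 2 with 6 groups in a single fit (6.48%). In D06 versus HOCl 0 became 2 with DESeq2 (1.96%) and 1 with no filter (0.143%). In BPR21 versus HOCl 0 became 2 with edgeR (0.857%), 4 with DESeq2 (2.53%), 1 with total-count scaling (0.0476%), 2 with edgeR's own filter (0.620%), 2 with no filter (0.192%), 2 with 6 groups in a single fit (1.41%), and without the mice that stood apart 4 with limma (1.05%) and 5 with edgeR (1.76%). In D11 versus control 0 became 2 with DESeq2 (1.66%), in D06 versus control 3 became 5 with total-count scaling (67.0%), and in BPR21 versus control 0 became 1 with DESeq2 (4.96%). The FDR alone changed no count. The 1 neighbouring step beyond its spread became 0 without the mice that stood apart. The cause was not tested.

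Leaving out each mouse in turn gave, with the range of the share of all genes called in brackets, 3 to 3 calls in HOCl versus control (3.62% to 6.43%), 0 to 1 in D11 versus HOCl (0.0190% to 0.276%), 4 to 5 in E07 versus HOCl (7.11% to 8.73%), 0 to 0 in D06 versus HOCl (0% to 0.657%), 0 to 1 in BPR21 versus HOCl (0.343% to 0.866%), 0 to 3 in D11 versus control (0.0476% to 5.18%), 0 to 0 in E07 versus control (0% to 0.0761%), 3 to 4 in D06 versus control (6.95% to 9.94%) and 0 to 0 in BPR21 versus control (0.181% to 6.19%).

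Same-numbered mice are different animals, and the mean correlation of their deviations was 0.010 to 0.146 over the comparisons, against -0.00910 to 4.03e-04 for other numbers. It exceeded 0.1 in 2 to 7 of 10 or 11 pairs and in no comparison in every pair, and 1 to 4 mice correlated best with their own number, so the numbers were not taken as pairs. With the number as a replicate block limma called 0 members and 0.809% of all genes in HOCl versus control (4.96% without the block), 2 and 1.09% in D11 versus control and 1 and 0.124% in E07 versus control. With the replicate block D06 versus control had 4 and 8.39%, E07 versus HOCl 4 and 7.60%, and the others 0 members, with 0.00952% in D11, 0% in D06 and 0.2% in BPR21 versus HOCl and 5.08% in BPR21 versus control.

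Limits are the low counts of Ltf, Camp and Ngp, whose differences shrink on the vst scale, the 4 mice that stood apart, cages that cannot be told apart from groups, red cell RNA, which differed between groups, and the scaling, which moved the median of all genes.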

Other observations

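HOCl mouse 8, which has counts but no vst values, had 1106 CPM of S100a8 and 2598 CPM of S100a9, inside the range of the other HOCl mice. Its Cd177 level of 40.0 CPM was the highest of the HOCl group, where the other mice reached 39.5 CPM, and lay below the highest control mouse (47.7 CPM). Ltf, Camp and Ngp were at 9.55, 4.61 and 18.1 CPM, against medians of 10.7, 4.59 and 29.5 CPM in the other HOCl mice.

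The highest value of a member came from a different mouse in different groups. D06 mouse 6, which did not stand apart in S100a8, had the highest Camp (9.81), Ngp (11.37) and Cd177 (8.93) of the D06 group and the highest count of Ltf, Camp and Ngp per 1000 calprotectin counts of all mice, 48.3. BPR21 mouse 10 had the highest Ltf of its group, 9.37, and 26.1 such counts per 1000. E07 mouse 6 had the highest Mmp9, Ltf, Camp, Ngp and Cd177 of the E07 group, whereas E07 mouse 4 had the highest S100a8, S100a9, Retnlg and Mmp8.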
